A study of Homo sapiens with 6 samples.

Results

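The D and E cyclins, the kinases they activate and their inhibitors p27 and p16 were examined as 10 genes: CCND1, CCND2, CCND3, CCNE1, CCNE2, CDK2, CDK4, CDK6, CDKN1B and CDKN2A. Every probe that carried one of these symbols on the array was taken, which gave 19 of 47231 probes and 10 of 31334 symbols. The samples were U2OS cells, a human osteosarcoma line, in 2 groups of 3. The control samples are titled as carrying a control shRNA, and their genotype label calls them parental cells. The knockdown samples are labelled as cells with TUSC4 stably knocked down by an shRNA. The hairpin sequences, the promoter that drives them and whether the cells were clones or pools are details not given in the sources used here. Nor do the labels say that the 3 samples of a group were separate cultures, so the p-values reflect only how far these samples scatter, and that scatter may be technical. All 6 arrays lay on 1 chip with each group in neighbouring positions, and position and group cannot be told apart.

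D cyclins bind CDK4 and CDK6 in G1, and E cyclins bind CDK2 at the entry into S phase. Both kinds of complex phosphorylate the retinoblastoma protein RB, which releases E2F transcription factors to switch on genes of DNA replication. The inhibitor p27 (CDKN1B) binds cyclin-CDK complexes, chiefly those of CDK2, and p16 (CDKN2A) binds CDK4 and CDK6 directly. TUSC4, now named NPRL2, belongs to the GATOR1 complex, which holds mTORC1 in check when amino acids run short. The arrays measured transcripts, and neither protein levels nor kinase activity were analysed here.

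TUSC4 itself checked the labels. Its log2 intensities, after background correction and normalization between arrays, were 9.74, 9.76 and 9.79 in the control samples and 8.49, 8.50 and 8.75 in the knockdown samples. Every knockdown sample lay below every control sample, with a log2 fold change of -1.18 ± 0.10 (SE, limma adjusted p = 8.77e-07). Each array had 20378 to 21485 probes above background, and precision is limited by how few arrays there were. Of 7 mesenchymal and bone markers, 5 were above background, and COL1A2 and TWIST1 were not. COL1A1 and RUNX2 were called lower (log2 fold change -0.96 and -0.68, with another kept probe of RUNX2 at -0.01), and their part in the results below was not tested. Among markers of other cell types, EPCAM alone of the 6 epithelial genes on the array, CD14, LYZ and CD79A of 7 blood genes and TEK alone of 5 endothelial genes were above background, and none of these 5 was called changed.

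The knockdown samples had more CCND1 and CCND2 transcript and less CDK2, CDK4, CDK6 and CDKN1B transcript than the controls. CCND3, CCNE1 and CCNE2 were measured and not called, and CDKN2A was not well above background on any array. A gene was called at a limma adjusted p under 0.05, with adjustment over all 15300 genes tested. Of the 9 members tested, 2 were thus called higher and 4 lower, beside 27.0% of all tested genes called in either direction, 13.3% higher and 13.7% lower. The groups did not overlap in 40.5% of all tested genes. The probe that stood for each of these 9 genes was above background on all 6 arrays. Each array measured the RNA of many cells together, so fewer cells of a type and less RNA per cell cannot be told apart.

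**Figure D1:**
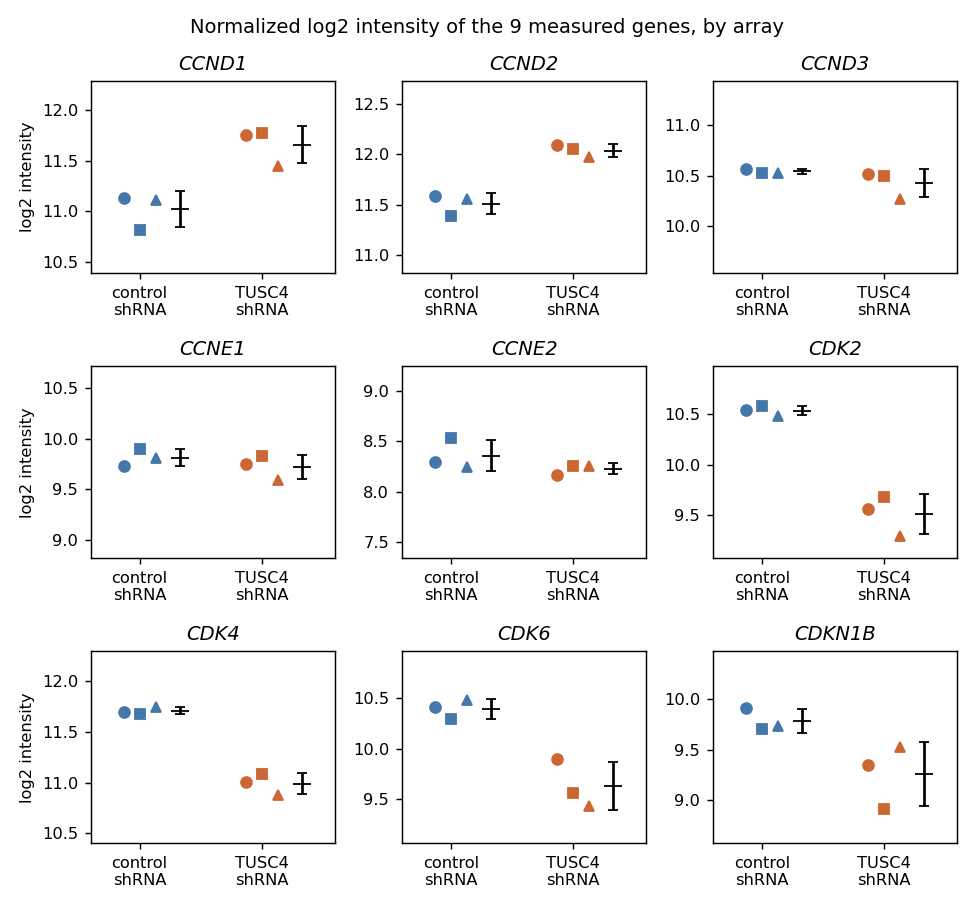
Log2 normalized intensity (vertical axis) of the brightest kept probe of each of the 9 measured members, with 1 point per array, marked by shape for replicates 1, 2 and 3, and the mean ± SD of the 3 arrays of a group beside them. The knockdown points of CDK2, CDK4, CDK6 and CDKN1B all lie below the control points, those of CCND1 and CCND2 all lie above them, and the points of CCNE1 and CCNE2 overlap. Heights are not comparable between genes, since each probe has its own brightness.

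Among the D cyclins, which couple growth factor signals to CDK4 and CDK6, CCND1 had log2 intensities of 11.13, 10.81 and 11.11 in the control samples. In the knockdown samples they were 11.75, 11.77 and 11.44. The lowest knockdown sample, the third, was above the highest control sample, so the groups did not overlap. CCND1 rose by 0.64 ± 0.12 on the log2 scale (SE, n = 3 per group, limma adjusted p = 0.000846), or 1.56-fold. It was called in all 18 alternatives tried, with log2 fold changes from 0.43 to 0.73. Of the 15300 genes tested, 331 rose further.

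CCND2, the D cyclin known for its role in granulosa cells and lymphocytes, had log2 intensities of 11.59, 11.39 and 11.55 in the control samples and 12.09, 12.05 and 11.97 in the knockdown samples. The groups did not overlap, and their spread was narrow (SD 0.11 and 0.06, n = 3 each). CCND2 rose by 0.52 ± 0.10 (log2, SE, limma adjusted p = 0.000921), or 1.44-fold. Its other, dimmer probe read 9.58, 9.48 and 9.58 in the controls against 10.15, 10.04 and 9.97 in the knockdown samples, a log2 fold change of 0.51 ± 0.10 (SE, limma adjusted p = 0.00117 over all kept probes). After quantile normalization the size was thus nearly equal at both probes. In the signal as scanned, the groups did not overlap at the brighter probe but overlapped at the dimmer one. The call of the brighter probe was lost when the arrays were not normalized (0.36, limma adjusted p = 0.0664), and that of the dimmer probe was also lost when arrays were scaled by their medians (0.28, limma adjusted p = 0.102).

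CCND3, the D cyclin best known from lymphocyte development, had log2 intensities of 10.57, 10.53 and 10.53 in the control samples and 10.52, 10.50 and 10.27 in the knockdown samples. The groups did not overlap, but the highest knockdown sample lay just under the lowest control. Its log2 fold change came to -0.11 ± 0.10 (SE, limma adjusted p = 0.456), with a 95% interval from -0.32 to 0.10. CCND3 was called lower when arrays were scaled by their medians instead (-0.33, limma adjusted p = 0.0374) or not normalized (-0.37, limma adjusted p = 0.0403).

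These alternatives also moved the median of all genes, which was 0.00 on the log2 scale with quantile normalization, -0.12 with median scaling and -0.16 without normalization. Relative to that median, CCND3 stood at -0.22 in both settings. The share of calls that were higher fell from 49.4% to 15.2% and 9.85%.

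The 3 D cyclins were set against each other within each array, as the log2 difference between genes, in a family of 7 such pairs over all members. Between CCND1 and CCND3 the change differed by 0.75 ± 0.10 (log2, SE, 95% interval 0.48 to 1.02), and between CCND2 and CCND3 by 0.63 ± 0.07 (0.44 to 0.83). In both pairs the array differences of the groups did not overlap, and the exact permutation test gave p = 0.1 two-sided, the smallest that 3 against 3 allows, and 0.233 after adjustment over the 7 pairs. Between CCND1 and CCND2 the difference in change was 0.11 ± 0.09 (-0.12 to 0.35, exact permutation p = 0.3, adjusted 0.42).

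The E cyclins, which activate CDK2, were not called. CCNE1 had log2 intensities of 9.73, 9.90 and 9.81 in the control samples and 9.75, 9.82 and 9.59 in the knockdown samples at its brightest probe. The groups overlapped, with a log2 fold change of -0.09 ± 0.10 (SE, limma adjusted p = 0.556, 95% interval -0.30 to 0.12). Of its 3 other kept probes, 2 were lower by more, at -0.31 ± 0.12 (SE, limma adjusted p = 0.0768) and -0.32 ± 0.13 (SE, limma adjusted p = 0.0841), and neither passed. The fourth, a dim probe above background on 5 of 6 arrays, gave -0.01 ± 0.12 (SE, limma adjusted p = 0.965). The first of the 2 lower probes was called when the first control sample was left out (-0.43, limma adjusted p = 0.0268). These 2 probes were also called under median scaling (-0.55 and -0.57, limma adjusted p = 0.00232 and 0.00371) and without normalization (-0.59 and -0.61, limma adjusted p = 0.00246 and 0.00335).

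CCNE2, the second E cyclin, had log2 intensities of 8.30, 8.53 and 8.24 in the control samples and 8.17, 8.26 and 8.26 in the knockdown samples. The groups overlapped, with a log2 fold change of -0.13 ± 0.10 (SE, limma adjusted p = 0.389, 95% interval -0.35 to 0.09). Its other probe was above background on 0 arrays and was not tested. As with CCND3, both E cyclins were called lower under median scaling (CCNE1 -0.33 and CCNE2 -0.36, limma adjusted p = 0.0320 and 0.0308) and without normalization (-0.37 and -0.40, limma adjusted p = 0.0343 and 0.0329). The change of CCNE1 differed from that of CCNE2 by 0.04 ± 0.10 (95% interval -0.23 to 0.31, exact permutation p = 0.8, adjusted 0.9).

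All 3 kinases were lower in every knockdown sample than in any control sample. CDK2, the partner of the E and A cyclins, had log2 intensities of 10.54, 10.58 and 10.48 in the control samples and 9.56, 9.68 and 9.30 in the knockdown samples. The gap between the groups was several times the spread within them (SD 0.05 and 0.19). CDK2 fell by 1.02 ± 0.11 on the log2 scale (SE, n = 3 per group, limma adjusted p = 6.72e-06), or 2.03-fold, the largest change among the 9 measured members. Only 99 of the 15300 genes tested had a larger fall. Its other probe read 7.91, 8.46 and 8.02 in the controls against 7.60, 7.69 and 7.03 in the knockdown samples, with -0.69 ± 0.16 (SE, limma adjusted p = 0.00496 over all kept probes). That probe was dimmer and more scattered, and its groups did not overlap either.

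CDK4, the first of the cyclin D kinases, had log2 intensities of 11.70, 11.68 and 11.75 in the control samples and 11.00, 11.08 and 10.88 in the knockdown samples. The samples of each group lay close together (SD 0.03 and 0.10), and the groups did not overlap. CDK4 fell by 0.72 ± 0.10 (log2, SE, limma adjusted p = 6.10e-05), or 1.65-fold. The fall was in the signal as scanned too, at 3931, 3397 and 3508 units in the controls against 1841, 1863 and 2038 in the knockdown samples. Such separation was not particular to called genes. The brightest probes of CCND3, CCNE1 and CCNE2, which were not called, also had lower scanned signal in every knockdown sample than in any control. Falls larger than that of CDK4 were found for 314 genes.

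CDK6, the other cyclin D kinase, had log2 intensities of 10.42, 10.29 and 10.48 in the control samples and 9.90, 9.57 and 9.44 in the knockdown samples. The first knockdown sample was the nearest to the controls, and the groups did not overlap. CDK6 fell by 0.76 ± 0.12 (log2, SE, limma adjusted p = 0.000207), or 1.70-fold, and 266 genes fell further.

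The calls of the 3 kinases held in all 18 alternatives tried. Their log2 fold changes ranged from -1.29 to -0.86 for CDK2, from -0.93 to -0.66 for CDK4 and from -1.03 to -0.66 for CDK6. CDK2 and CDK4 differed in their change by -0.30 ± 0.07 (log2, SE, 95% interval -0.50 to -0.10), with no overlap of the array differences and an exact permutation p of 0.1, the smallest possible (adjusted 0.233). This difference was -0.20 with the authors' log2 values and -0.13 when the kept probes of a gene were averaged, since the other probe of CDK2 fell by less. The change of CDK2 differed from that of CDK6 by -0.26 ± 0.15 (-0.69 to 0.17, exact permutation p = 0.2, adjusted 0.35), and by -0.15 without the first knockdown sample and -0.093 with averaged probes. Between CDK4 and CDK6 the difference was 0.04 ± 0.13 (-0.33 to 0.41, exact permutation p = 0.9, adjusted 0.9), an interval that leaves room for unequal falls.

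**Figure D2:**
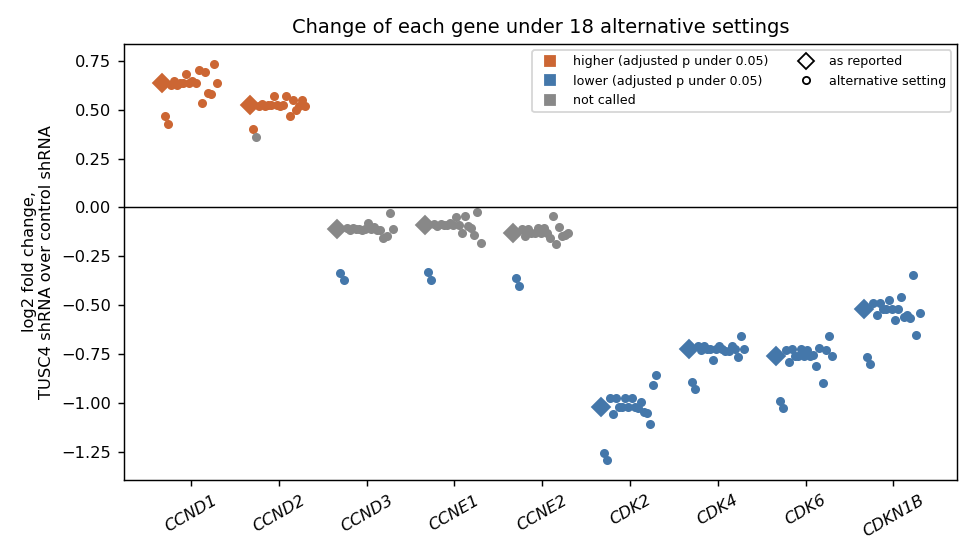
Log2 fold change (vertical axis) of each measured member, TUSC4 shRNA over control shRNA, as reported (diamond) and under each of 18 alternative settings (points), coloured by call. CDK2, CDK4, CDK6 and CDKN1B stay below 0 and CCND1 and CCND2 above 0 in all settings, while CCND3, CCNE1 and CCNE2 pass the test under median scaling and without normalization.

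The inhibitor gene CDKN1B, which encodes p27, had log2 intensities of 9.92, 9.70 and 9.73 in the control samples and 9.34, 8.91 and 9.53 in the knockdown samples. The groups did not overlap, but the knockdown samples were scattered (SD 0.32), with the second the lowest and the third nearest to the controls. CDKN1B fell by 0.52 ± 0.13 (log2, SE, limma adjusted p = 0.00873), or 1.44-fold. Its other probe read 8.71, 8.93 and 8.66 in the controls against 8.13, 8.17 and 8.35 in the knockdown samples, with -0.55 ± 0.11 (SE, limma adjusted p = 0.00118 over all kept probes). The knockdown samples were closer together at this probe. Without the second knockdown sample the change of CDKN1B at the brighter probe was -0.35 (limma adjusted p = 0.0456 over genes), and without the first control sample it was -0.46 (limma adjusted p = 0.0499 over genes). In the fit over all kept probes that probe lost its call in both settings (limma adjusted p = 0.05001 and 0.0529). Without normalization its change was -0.80 (limma adjusted p = 0.00443 over genes).

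CDKN2A, which encodes the CDK4 and CDK6 inhibitor p16 and, from another reading frame, the p53 regulator ARF, was not well above background. Its 3 probes were above background on 0 arrays, with signals from 95.9 to 123 units, where the estimated background of the arrays was 106 to 118 units. No fold was computed for it, and its pairing with CDKN1B was not possible.

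Over all 19 member probes, 15 were kept, of which 3 were called higher, 6 lower and 6 not called, beside 24.3% of all 20657 kept probes. The 4 probes that were not kept were those of CDKN2A and 1 of CCNE2. Within CCND2, CDK2 and CDKN1B, which had 2 kept probes each, both probes were called in the same direction. CCND1, CCND3, CDK4 and CDK6 had a single probe, with no second one to set beside it.

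**Figure D3:**
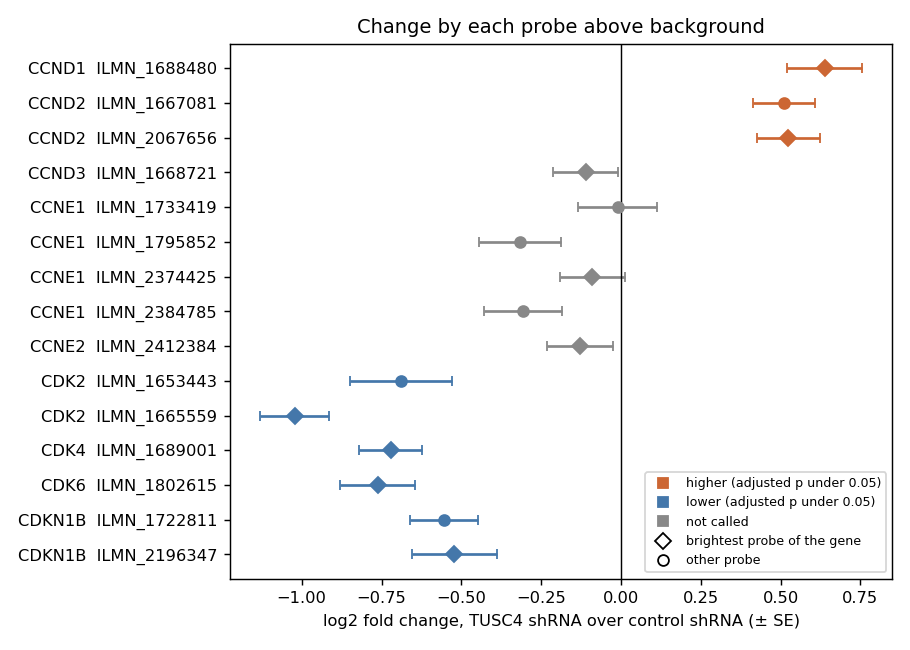
Log2 fold change, TUSC4 shRNA over control shRNA, with its SE (horizontal bars) for the 15 kept member probes, from the limma fit over all kept probes, with diamonds for the brightest probe of a gene. Both probes of CDK2 and of CDKN1B lie below 0 and both of CCND2 above it, while the 4 of CCNE1 spread from -0.32 to -0.01 and none of the 4 passed the adjusted test.

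The region before the start of 3 of the lower genes is shown so that the promoters of members that moved together can be read side by side. RefSeq promoter entries (GRCh38.p14) matched 6 of the 10 members, with 10 entries among them, and the 250 bases before the start were searched. CDK2, CCND1, CCND2 and CCNE2 had no entry in the table used. The motifs were the E-box CACGTG bound by MYC and related factors, the GC box GGGCGG bound by SP1, the CCAAT box CCAAT bound by NF-Y, the E2F motif TTTNNCGC, the forkhead motif GTAAACA and the ATF4 motif TGATGNAA, each on both strands. Capitals mark E-boxes and GC boxes in CDK4 (chr12:57752311-57752560, minus strand), GC boxes in CDK6 (chr7:92836574-92836823, minus strand), and CCAAT boxes and the GC box in CDKN1B (chr12:12717118-12717367, plus strand). All are written 5′ to 3′ in the direction of transcription.
CDK4: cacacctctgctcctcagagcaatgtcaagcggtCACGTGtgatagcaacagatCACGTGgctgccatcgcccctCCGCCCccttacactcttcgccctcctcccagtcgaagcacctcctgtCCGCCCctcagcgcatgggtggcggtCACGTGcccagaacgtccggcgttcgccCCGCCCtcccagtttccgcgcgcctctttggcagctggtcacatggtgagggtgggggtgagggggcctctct
CDK6: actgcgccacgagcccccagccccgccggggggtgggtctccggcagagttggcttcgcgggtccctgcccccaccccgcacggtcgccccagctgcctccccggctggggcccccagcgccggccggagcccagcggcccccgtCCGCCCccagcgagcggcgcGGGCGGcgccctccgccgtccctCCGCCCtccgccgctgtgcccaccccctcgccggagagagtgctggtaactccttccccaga
CDKN1B: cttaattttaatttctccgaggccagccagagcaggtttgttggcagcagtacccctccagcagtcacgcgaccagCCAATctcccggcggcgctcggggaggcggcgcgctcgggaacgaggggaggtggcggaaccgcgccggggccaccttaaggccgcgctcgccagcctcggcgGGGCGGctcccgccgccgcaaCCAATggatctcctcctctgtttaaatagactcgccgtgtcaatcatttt

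The CDK4 promoter held 3 E-boxes, beginning 216, 196 and 101 bases before the start. At least 3 were found in 28 of all 35116 promoter entries (0.0797%), and at least 1 in 6.34%. CDK4 also held 3 GC boxes. CDK6 held 3 GC boxes, beginning 105, 85 and 62 bases before the start, at 1 of its annotated starts and 0 at another. CDKN1B held 2 CCAAT boxes, beginning 174 and 50 bases before the start, and 1 GC box. GC boxes were found in 42.6% of all entries and CCAAT boxes in 32% of them. No member entry held the E2F, forkhead or ATF4 letters, which 5.92%, 2.98% and 3.14% of all entries held. The motifs are matches of letters and not measured binding, and no motif searched was common to the 3 sequences other than the GC box. The GC box was not particular to the lower genes. The uncalled CCNE1 held 7, the entries of the uncalled CCND3 held 5, 2 and 0, and those of CDKN2A held 0 and 1. The CCND3 entries also held 0, 1 and 1 CCAAT boxes. The transcript of MYC, a factor that binds E-boxes, was not called (log2 fold change 0.13, limma adjusted p = 0.486). MYC was looked up after its value was seen, and its part in the change of CDK4 was not tested.

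CDK2, CDK4, CCND2 and CDKN1B all lie on chromosome 12, with CDK2 and CDK4 on its long arm. Between CDK2 and CDK4 in gene order were 50 tested genes, with a median log2 fold change of -0.21. Of these, 19 were called lower and 2 higher, where 13.7% and 13.3% of all tested genes were. Of the 50, 0 fell further than CDK2 and 2 fell further than CDK4. Each member was also set beside its 50 nearest tested genes on the chromosome. The change of CDK2 was -0.73 relative to the median of its neighbours, and all 50 were higher than CDK2. CDK4 stood at -0.51 relative to its neighbours, of which 16 were called lower and 1 higher. Many of these genes were also counted among the neighbours of CDK2, so the counts are not separate. Among the 25 genes nearest to CDK4, 4 were called lower and 0 higher. For the 25 nearest to CDK2 the counts were 16 and 1.

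CCND2, on the same chromosome, rose among neighbours of which 23 of 50 were called lower and 1 higher. It stood 0.74 above their median, and 49 of the 50 lay below it. CDKN1B stood at -0.49 relative to its neighbours, which had a median of -0.04. Of these 50, 12 were called lower and 4 higher, and 6 fell further than CDKN1B. On other chromosomes, CCND1 stood 0.68 above its neighbours on chromosome 11, all 50 of which lay below it. CDK6 stood at -0.94 relative to its neighbours on chromosome 7, where 14 were called higher and 4 lower. The 3 uncalled members stood at -0.12 (CCND3), -0.20 (CCNE1) and -0.02 (CCNE2) relative to their neighbours. Of the 50 neighbours, 37 lay above CCND3, 43 above CCNE1 and 29 above CCNE2. The copy number of these regions was not analysed here, and its part in the results was not tested.

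**Figure D4:**
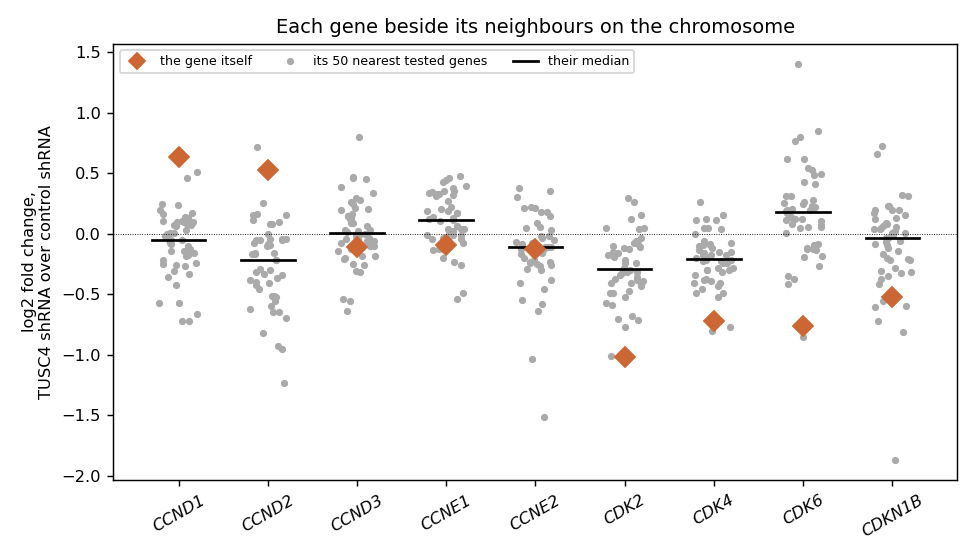
Log2 fold change, TUSC4 shRNA over control shRNA, of each measured member (diamond) and of its 50 nearest tested genes on the same chromosome (small points), with the median of the neighbours as a bar. CCND1, CCND2, CDK2 and CDK6 lie at or beyond the edge of their neighbours, while CCND3, CCNE1 and CCNE2 lie among them.

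The other genes of the pathway were taken from 8 lists, in which 89 of 95 genes were measured and 15 were called higher and 15 lower, 33.7% of those measured beside 27.0% of all genes tested. The median over these 89 log2 fold changes was -0.03, beside 0.00 over all genes tested. All 15 falls were also called under median scaling, where 2 of the 15 rises were, those of CDKN1A and FBXO4.

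Of the 5 other CDK inhibitors, 1 rose and 1 fell (40% called). CDKN1A, which encodes the inhibitor p21, rose by 0.62 ± 0.12 (log2, SE, limma adjusted p = 0.00110). CDKN2D, an inhibitor of CDK4 and CDK6 from the family of p16, fell by 0.43 ± 0.11 (log2, SE, limma adjusted p = 0.00609). The transcript of p21 was higher, and that of p27 lower, in the knockdown samples.

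Of the 12 measured RB and E2F genes, 4 rose and 4 fell (66.7% called). The 4 with the smallest p are named here, and each of the other called genes lost its call in 4 to 8 of the 18 alternatives. RBL2, which encodes the RB relative p130, rose by 0.53 ± 0.11 (SE, limma adjusted p = 0.00159), and E2F2, an activating E2F, rose by 0.42 ± 0.11 (SE, limma adjusted p = 0.0102). TFDP1, the dimer partner of E2F proteins, fell by 0.50 ± 0.10 (SE, limma adjusted p = 0.00171), and E2F6, a repressive E2F, fell by 0.37 ± 0.10 (SE, limma adjusted p = 0.0125). The rises of RBL2 and E2F2 were not called under median scaling (0.28 and 0.19), that of E2F2 was lost without the second knockdown sample (0.31, limma adjusted p = 0.0565), and the fall of E2F6 was lost without the first control sample (-0.33, limma adjusted p = 0.0655). Among 18 genes of S phase that E2F activates, 4 fell and 1 rose, and the share called, 27.8%, was near the 27.0% of all genes tested. The falls were of TK1, thymidine kinase (-0.64 ± 0.11 SE, limma adjusted p = 0.000370), PRIM1, a DNA primase subunit (-0.52 ± 0.10 SE, limma adjusted p = 0.00102), and the replication helicase subunits MCM2 and MCM3 (-0.54 ± 0.11 and -0.46 ± 0.09 SE, limma adjusted p = 0.00179 and 0.00197). PRIM1 is also among the lower neighbours counted for CDK2 and CDK4 on chromosome 12. The only rise was of PCNA (0.30), and its call was lost in 7 of the 18 alternatives. With the mean of its kept probes the change of PCNA was 0.17 (limma adjusted p = 0.206). The other 13 were not called.

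Genes that control the breakdown of cyclins and p27 came to 12 measured, of which 3 rose and 1 fell (33.3% called). SKP2, the F-box protein that targets p27 for destruction, fell by 0.83 ± 0.12 (log2, SE, limma adjusted p = 9.00e-05), and its other kept probes reached -0.41. The rises were of FBXO4 and FBXO31, F-box proteins linked to the breakdown of cyclin D1 (0.51 ± 0.09 and 0.51 ± 0.11 SE, limma adjusted p = 0.000608 and 0.00284), and of FBXW7, which targets cyclin E (0.46 ± 0.10 SE, limma adjusted p = 0.00325). Another kept probe of FBXW7 gave -0.05, and the mean of its probes was not called (0.22, limma adjusted p = 0.0905).

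Of 12 genes that act on the transcription of the D cyclins or p27, 0 rose and 3 fell in the limma fit, a share of 25% beside the 27.0% of all genes tested. They were STAT3 (-1.19 ± 0.11 SE, limma adjusted p = 1.35e-06), FOS, a part of AP-1 (-1.14 ± 0.28 SE, limma adjusted p = 0.00735), and FOXO1, a forkhead factor known to activate the p27 gene (-0.33 ± 0.10 SE, limma adjusted p = 0.0228). The call of FOS was lost with the authors' own log2 values (-0.82, limma adjusted p = 0.0625), and without the third control sample its change was -0.60. That of FOXO1 was lost without the first control, the second control or the first knockdown sample (-0.25, -0.32 and -0.32) and with the authors' values (-0.17). Of 8 genes of CDK activation, 1 rose, the inhibitory kinase gene WEE1 (0.51 ± 0.11 SE, limma adjusted p = 0.00227), and 0 fell (12.5% called). None of the 4 measured cyclins of S and M phase with CDK1 was called, the smallest p being those of CCNB2 (-0.23 ± 0.10 SE, limma adjusted p = 0.0887) and CDK1 itself (-0.21 ± 0.09 SE, limma adjusted p = 0.108). Both were called lower with the authors' log2 values (-0.25 and -0.23, limma adjusted p = 0.0328 and 0.0255), without background correction (limma adjusted p = 0.0463 and 0.0496) and with an offset of 100 (limma adjusted p = 0.0448 and 0.0472). CCNB2 was also called lower at -0.36 under median scaling and at -0.40 with no normalization (limma adjusted p = 0.0233 and 0.0270).

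**Figure D5:**
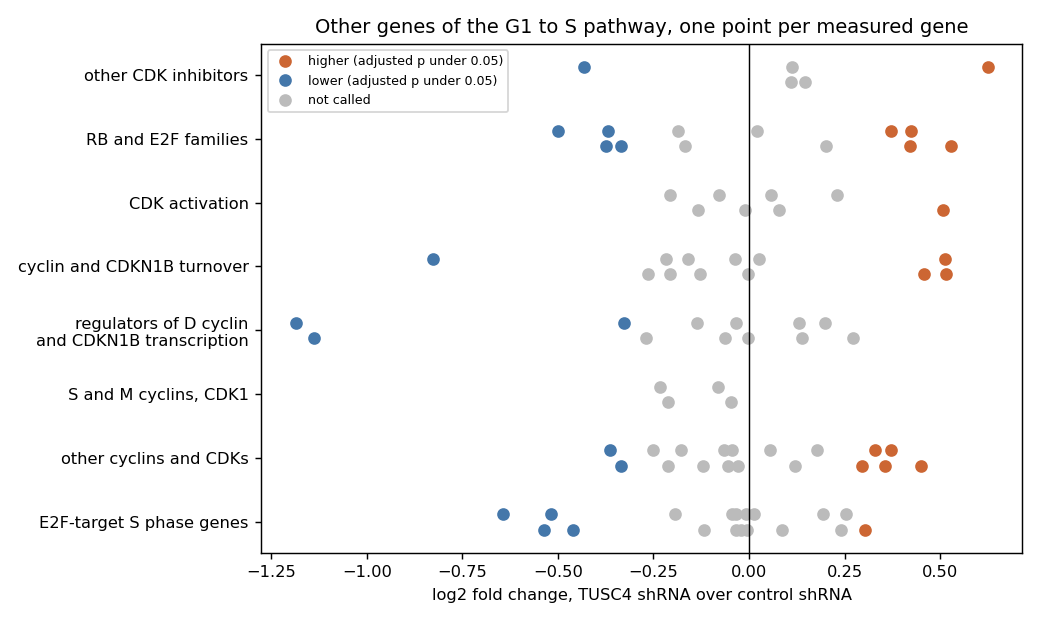
Log2 fold change, TUSC4 shRNA over control shRNA (horizontal axis), of the 89 measured genes in the 8 pathway lists, with 1 point per gene coloured by its call. The furthest falls, STAT3 and FOS, are among the regulators of D cyclin and p27 transcription, and the furthest rise is CDKN1A among the inhibitors.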

How the data were processed

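RNA of 3 control shRNA and 3 TUSC4 shRNA samples was measured on Illumina arrays. The deposited average bead signal is a linear intensity, not normalized between arrays by its column names and values, and the submitters' processing notes name BeadStudio. The authors also deposited log2 values of the same arrays, used here as an alternative, with their derivation not given in the sources used here. Intensity was corrected with limma's normexp method (offset 50), put on the log2 scale and then quantile normalized. No detection p-values were used, so the mode of each array's log2 signal (density bandwidth 0.05) served as background, and the probes below it gave the spread. A probe was kept if its estimated p was under 0.05 on 3 or more of 6 arrays, and the brightest kept probe stood for a gene. Groups were compared with limma 3.58.1 in R 4.3.3 without covariates, with Benjamini-Hochberg adjustment over 15300 genes or, for single probes, over 20657 kept probes. The limma fit was tested on simulated log2 values and the comparison of pairs on made-up values. Background correction, the probe filter, the choice of probe and normalization were not tested in this way. The members and lists were chosen with earlier results of these data known. The text names all members, TUSC4, up to 4 called genes with the smallest p from each list (up to 2 where none was called), and the 2 nearest profiles of each called member. PCNA, the only rise among the S phase genes that E2F activates, was named beyond this rule. Gene order and promoters came from RefSeq tables (GRCh38.p14).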

Additional observations from a re-analysis of the deposited data

How the results depend on the processing

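Quantile normalization holds all arrays to 1 distribution. Under median scaling 619 genes were called higher and 3457 lower, with 7 members and 11 member probes lower, and CCND3, CCNE1 and CCNE2 became called (-0.33, -0.33 and -0.36). Without normalization the counts were 384 higher and 3514 lower, with 1 member and 1 member probe higher and 7 members and 11 member probes lower. There CCND2 was not called (0.36), and CCND3, CCNE1 and CCNE2 were (-0.37, -0.37 and -0.40). The cause was not tested. With 25 or 100 neighbours in place of 50, CCND2 stood 0.84 and 0.64 above their median, and CDK2 at -0.87 with 100. Leaving out 1 sample at a time gave 3041 to 4077 called genes and kept the 6 member calls. The small differences between CDK4 and CDK6 and between CCNE1 and CCNE2 changed sign, at -0.054 with the authors' log2 values and -0.052 with probes averaged per gene, and ranged from -0.037 to 0.17 and from -0.0052 to 0.12 when 1 sample was left out. Same-numbered deviations from the group means correlated at 0.10, 0.05 and -0.11, and 2 of 6 samples matched best with their own number. With 3 samples per group this gave no sign of pairing by replicate number, but it cannot show that the samples were unpaired. With the replicate block 4087 genes were called, 2027 higher and 2060 lower, with the members at 2 higher and 4 lower.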

Other observations

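Of 18 measured genes for other cyclins and CDKs, 5 rose and 2 fell (38.9% called, beside 27.0% of all genes tested). The rises included CDK10 (0.45 ± 0.09 SE, limma adjusted p = 0.00204, with another kept probe at 0.08), the transcription kinase gene CDK9 (0.33 ± 0.10 SE, limma adjusted p = 0.0203) and CCNK, the cyclin of CDK12 and CDK13 (0.36 ± 0.09 SE, limma adjusted p = 0.0105). CDK5R1, the activator of CDK5, fell by 0.33 ± 0.10 (SE, limma adjusted p = 0.0183), with another kept probe at -0.02. None of the 5 rises was called under median scaling. Leaving out 1 sample ended the calls of CDK9 (0.26 without the third knockdown sample), CCNK (0.33 without the third control sample) and CDK5R1 (-0.28 without the third knockdown sample).

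The genes nearest in profile to each called member were found over the 6 arrays among 12374 genes, as the smallest root mean square difference of log2 values centred on each gene's mean. They were SNAPC4 and DPP7 for CCND1 (0.0421 and 0.0502), TPP1 and SF3A3 for CCND2 (0.0391 and 0.0392), and TUBB2B and COL12A1 for CDK2 (0.0719 and 0.0732). For CDK4 they were TWISTNB and GTSE1 (0.0336 and 0.0408), for CDK6 IPO8 and TMEM123 (0.0492 and 0.0499), and for CDKN1B CAPZA1 and RPF1 (0.0586 and 0.0753).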
